A study of Mus musculus with 21 samples.

Results

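The clustered protocadherins are cadherin-like surface proteins encoded side by side in 3 gene clusters, alpha, beta and gamma, on mouse chromosome 18. The members were chosen by symbol, as every row of the count table named Pcdha, Pcdhac, Pcdhb, Pcdhga, Pcdhgb or Pcdhgc with a number. This gave 58 of 24047 genes, of which 14 belong to alpha, 22 to beta and 22 to gamma. RNA was sequenced from SMB21, a mouse cell line of sonic hedgehog medulloblastoma, a tumour of the cerebellar granule lineage. In 12 libraries the cells had received quisinostat (labelled JNJ), an inhibitor of histone deacetylases (HDACs), or its vehicle DMSO, for 2 h or 24 h. In 9 other libraries the cells had been infected with a virus and selected with puromycin. The virus coded for a short hairpin RNA (shRNA) to knock down Hdac1 (shHdac1) or Hdac2 (shHdac2), or for the control hairpin against luciferase (shLuc). Each of the 7 groups had 3 libraries. All of them came from this 1 line, and neither the dose of the inhibitor nor the number of hairpins per gene is given in the sources used here. The labels do not tell whether a group's libraries are separate cultures, and the p-values refer to the spread among libraries, which could be technical only.

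In neurons these proteins mark the identity of single cells. Each alpha or gamma isoform has its own promoter and first exon, spliced to constant exons that its cluster shares, whereas a beta gene is a single exon. A neuron switches on a few of the promoters through the insulator protein CTCF and cohesin, which bring a promoter to a distant enhancer, and DNA methylation keeps the others silent. The isoforms bind copies of themselves on other membranes, which lets branches of one neuron recognise and avoid each other. The C-type isoforms (Pcdhac1, Pcdhac2, Pcdhgc3, Pcdhgc4 and Pcdhgc5), at the ends of the alpha and gamma clusters, are switched on more uniformly than the others. Pcdhac2 lacks the CTCF-binding element that the other alpha promoters carry.

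Total counts were 23094799 to 39341784 per library, and the members together held 0.0156 to 0.0314% of them. Levels are given as CPM, counts scaled to a common library size, with library totals scaled by the TMM method over all 21 libraries. The targeted genes followed the labels. Hdac1 stood at 32.6, 28.5 and 30.6 CPM in the shHdac1 libraries against 88.8, 94.4 and 101 CPM in shLuc (log2 fold change -1.63, SE 0.09, edgeR adjusted p = 0.000165). Hdac2 stood at 49.3, 47.9 and 54.3 CPM in shHdac2 against 309, 300 and 347 CPM in shLuc (log2 fold change -2.66, SE 0.09). All 10 markers of the granule lineage were detected in every group, with a sum of 1182 to 2384 CPM, and the 4 markers of microglia summed to at most 0.423 CPM. Markers of other classes were detected too, with summed levels of 105 to 467 CPM for the 4 astrocyte markers and 1.75 to 23.9 for oligodendrocytes. The sums were 0.967 to 13.1 for endothelial cells, 1.76 to 27.7 for fibroblasts and 1.28 to 19.0 for other neurons. Of the 4 astrocyte, 4 oligodendrocyte and 4 fibroblast markers, 2 each were high enough to test below. Which cells these transcripts came from was not tested.

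SMB21 cells transcribed the beta cluster nearly whole, and the alpha and gamma clusters through few isoforms. A floor of 3 counts per library corresponded to 0.0768 to 0.126 CPM, and floors cover counting error only. In each library 30 to 38 of the 58 members lay above it. For beta this was 21 of 22 genes in every library, against 4 to 7 of 14 for alpha and 5 to 11 of 22 for gamma. Pcdhb1 was the beta gene at 0 counts in all 21 libraries. Pcdha4 was also at 0 in all 21, but so was Pcdha4-g, a transcript model of the table that starts with the same exon. Whether reads of that shared exon were counted at all was not tested. Of the other members, 10 never exceeded the floor, 6 of them alpha and 4 gamma.

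Per kilobase of exon specific to the isoform, the C-type isoform Pcdhgc3 had the highest median, 19.4 CPM per kilobase over 21 libraries. It was the highest member in 16 of them, and Pcdhb9 in the other 5, which were replicates 1 and 2 of DMSO 2 h and of JNJ 2 h and replicate 2 of DMSO 24 h. The range of Pcdhgc3 was 8.24 to 40.1 and that of Pcdhb9 7.75 to 15.7 CPM per kilobase. By median Pcdhb9 followed with 11.05, Pcdhb16 with 5.15, Pcdhb5 with 4.00, Pcdhac2 with 3.97 and Pcdhb4 with 3.60 CPM per kilobase. From Pcdhb16 to Pcdhb4 the ranges over libraries overlapped, with 3.27 to 6.48 CPM per kilobase for Pcdhb16 and 1.93 to 5.97 for Pcdhb4. Exon lengths, and the exon sequences compared below, were those of GENCODE vM21 on GRCm38, while the reads were aligned to mm9. How reads in the constant exons were assigned is not given in the sources used here. The value of Pcdhgc3 or of Pcdhac2 would be too high if its row held such reads.

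Among the gamma reads, nearly all were counted for a single isoform. Pcdhgc3 held 86.0 to 95.3% of the gamma reads of a library, with a median of 92.5%. This share, too, would be too high if its row held reads of the constant exons. The other C-type isoforms of this cluster were near the floor, with group means of 0.0104 to 0.159 CPM for Pcdhgc4 and 0.0285 to 0.121 CPM for Pcdhgc5. Pcdhga1, at 0.676 to 1.27 CPM, led the gamma A isoforms, ahead of Pcdhga6 (0.169 to 0.29 CPM), Pcdhga12 (0.132 to 0.22 CPM) and Pcdhga2 (0.0527 to 0.195 CPM), all as group means. Of gamma B, Pcdhgb8 (0.654 to 1.62 CPM), which RefSeq lists as a transcribed pseudogene, was followed by Pcdhgb2 (0.326 to 0.649 CPM) and Pcdhgb5 (0.235 to 0.479 CPM). Pcdhgb1, the fourth, had group means of 0 to 0.0656 CPM.

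In the alpha cluster Pcdhac2 led in 20 of 21 libraries, with 33.3 to 82.0% of the alpha reads of a library and a median of 66.8% over all 21. In JNJ 24 h replicate 3 Pcdhac1 led. Pcdhac1 and the numbered isoforms Pcdha3, Pcdha5, Pcdha9 and Pcdha12 made up nearly all of the rest. The share of Pcdhac2 would be too high if its row held reads of the alpha constant exons. In the beta cluster the reads were spread more evenly. Pcdhb9 held 17.6 to 29.7% and Pcdhb16 14.4 to 19.7% of them. Close paralogs can exchange reads, and the share of 75-base windows (the read length) that also occur in another member was 4.83 to 14.3% for 11 of the 12 numbered alpha isoforms (Pcdha10 had no exon model to compute it from), 0 to 8.96% for beta and 0 to 13.6% for gamma. It was 0% for Pcdhac1, Pcdhac2 and Pcdhgc3.

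**Figure D1:**
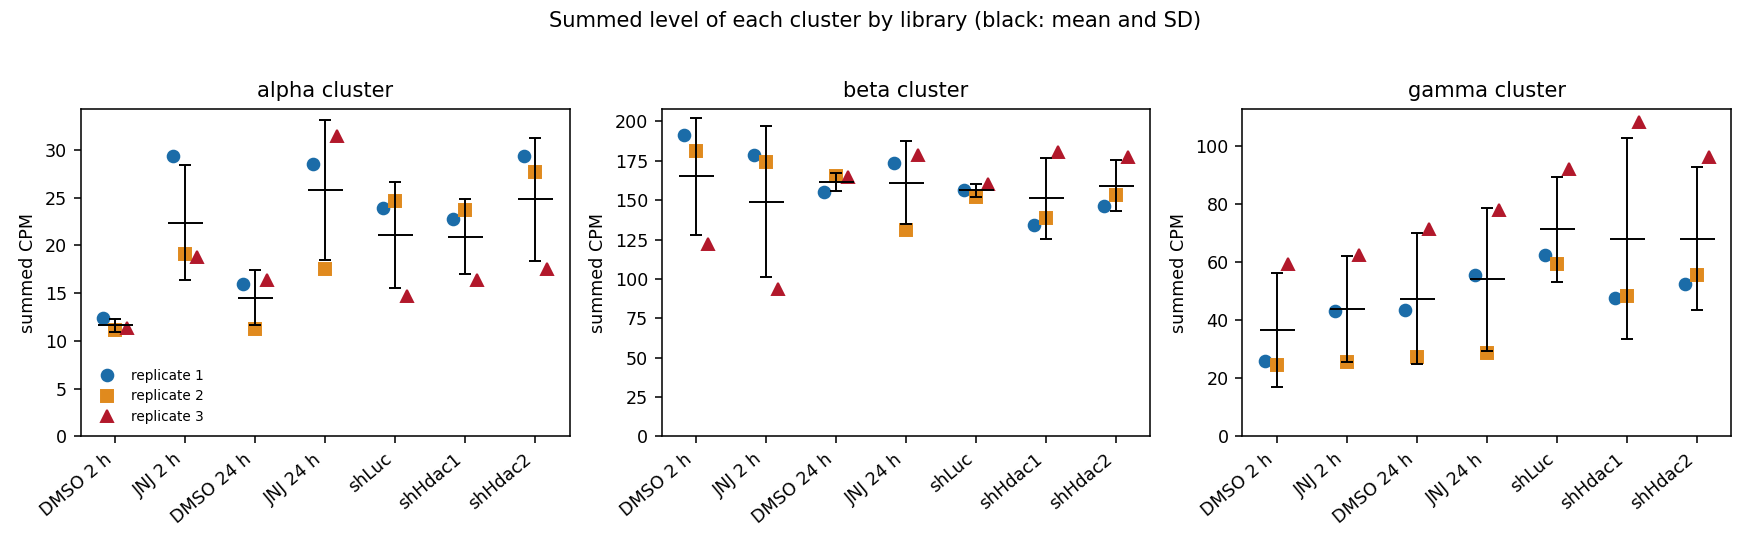
Summed level of the alpha, beta and gamma members (y axis, CPM) in each of 7 groups (x axis), 1 symbol per library by replicate number, with the mean and SD in black. The alpha sum was higher in both JNJ groups than in their DMSO groups, the beta means lay between 149 and 165 CPM, and replicate 3 had the highest gamma sum in every group.

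Several members varied with the replicate number in the labels, some of them more than with the group, and the libraries numbered 3 stood apart. Marker genes of other cells differed there as well. The 4 oligodendrocyte markers summed to 14.3 to 23.9 CPM in replicate 3 of the shRNA groups and to 2.80 to 5.89 CPM in replicates 1 and 2, with 1 or 2 of the 4 at 0 in each of these groups. Of them Mbp, a myelin protein, stood at 12.6 to 22.1 against 0.21 to 1.76 CPM there, and at 1.64 to 2.81 against 0.19 to 0.945 CPM in the drug groups. The astrocyte sum overlapped (256 to 416 against 281 to 321 CPM), while its marker Gfap stood at 54.8 and 30.0 CPM in replicate 3 of shHdac1 and shHdac2 and at 6.09 to 8.39 CPM in their other libraries. In shLuc Gfap stood at 15.2 CPM in replicate 3 and 16.4 and 16.1 CPM in the others. In the drug groups Gfap overlapped (2.46 to 10.2 against 4.35 to 13.1 CPM), as did the oligodendrocyte sum (2.38 to 4.26 against 1.75 to 5.61 CPM). Microglia markers, near the floor, summed lower in replicate 3 of the shRNA groups (0 to 0.122 against 0.156 to 0.423 CPM). The part of these markers in the differences below was not tested. Pcdhgb5 had 40, 41, 41 and 24 counts in replicate 3 of DMSO 2 h, JNJ 2 h, DMSO 24 h and JNJ 24 h, and 1 to 8 counts in the other 8 libraries of these groups. In shLuc, shHdac1 and shHdac2 replicate 3 had 14, 22 and 14 counts, and the other 6 libraries 0 to 4. In CPM all 7 libraries of replicate 3 lay above all 14 others, with a median 11.4 times as high. Pcdhgc3 and Pcdhgb2 were highest in replicate 3 in 7 of 7 groups (ratios of medians 1.74 and 1.87), and Pcdhgb8 was lowest there in 6 of 7. Pcdha3 and Pcdhb5 were lowest in replicate 3 in 6 of 7 groups. The share of all genes with such a pattern was not computed. Pcdhb6, chosen after its values were seen, had 125, 106, 159 and 89 counts in replicate 2 of the 4 JNJ and DMSO groups and 138 in DMSO 2 h replicate 1, against 18 to 67 in every other library.

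**Figure D2:**
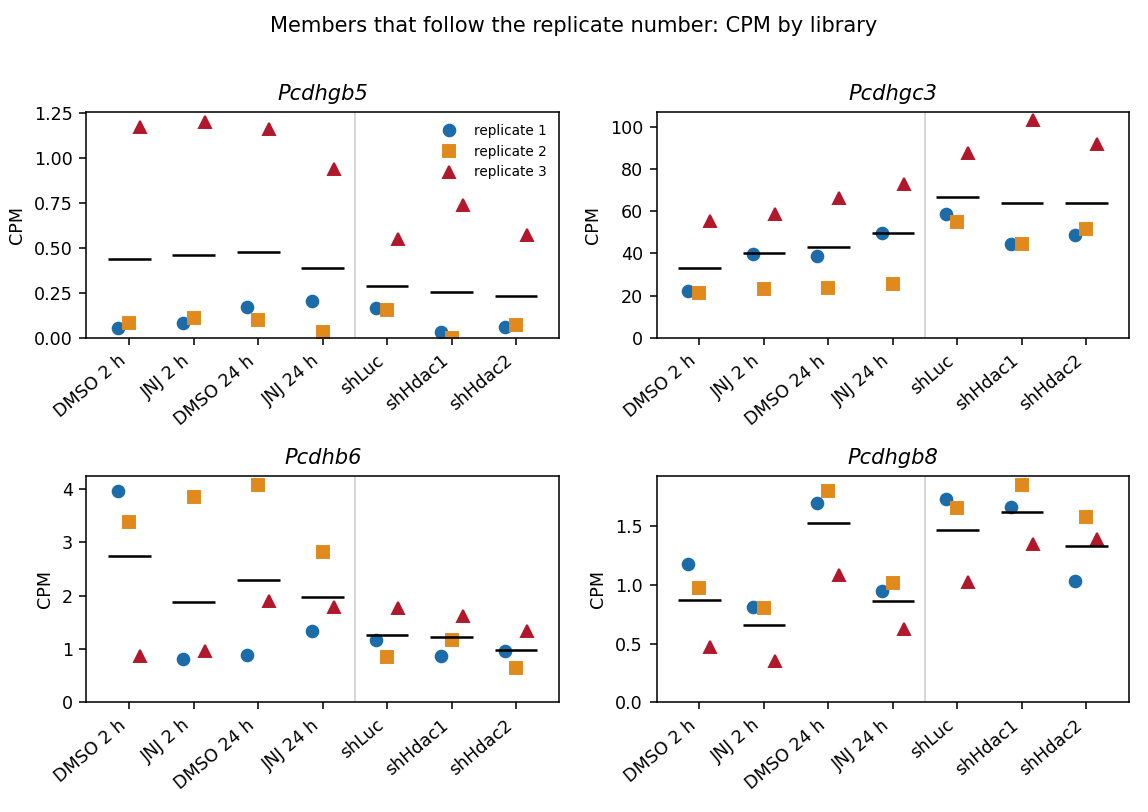
CPM (y axis) of Pcdhgb5, Pcdhgc3, Pcdhb6 and Pcdhgb8 by group (x axis), 1 symbol per library by replicate number and the group mean as a black line. Replicate 3 (triangles) was the highest library of every group for Pcdhgb5 and Pcdhgc3.

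Of the variance of log2 CPM over the 21 libraries, the group held a median of 27.1% and the replicate number 38.7% for the 7 gamma members above a low-count filter. The replicate number held more than the group for 5 of these 7, for 2 of 21 beta and 0 of 6 alpha members, and for 9.98% of 14551 genes. The 5 were Pcdhgc3, Pcdhgb5, Pcdhgb2, Pcdhga6 and Pcdhga12. Pcdhgb5 passed the filter through the libraries numbered 3, where it was high, so it is no support for a difference by number. Pcdhgb2 (4 to 28 counts per library), Pcdhga6 (2 to 17) and Pcdhga12 (1 to 14) were low. Libraries were also matched by the members' deviations from their means. For each library the most alike was sought in the other groups only, over the members and not over all genes. It had the same number for 10 of the 12 drug libraries and, among the shRNA libraries, for 6 of 9. Each shRNA library numbered 3 was most like another replicate 3. Replicates 1 and 2 of shHdac1 and replicate 1 of shHdac2 were most like a library of the other of these numbers. Of the drug libraries, DMSO 2 h replicate 1 was an exception and most like DMSO 24 h replicate 2 (r = 0.866 across 34 members of the 12 drug libraries) and not like another replicate 1. Among the shRNA libraries, replicates 1 and 2 of a group differed over the members by a chi-square of 0.957 to 1.91 per member, near counting noise, and by 14.0 to 39.3 from replicate 3. Over all genes the chi-square between replicates 1 and 2 had a mean of 3.77 to 9.53 per gene and a median of 0.769 to 2.28. Against replicate 3 the median was 8.48 to 21.7. Replicates 1 and 2 were kept as separate libraries in the main fits, although these values do not show that they are independent. A fit with them summed is given below. What the numbers stand for is not given in the labels.

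Genes were tested with edgeR's quasi-likelihood test across all genes above a low-count filter, and a gene was called at a Benjamini-Hochberg adjusted p under 0.05. The filter passed 34 members in the drug fit (6 alpha, 21 beta and 7 gamma) and 31 in the shRNA fit (5, 21 and 5). The other members were too low to test and are not counted below. Since a bulk library averages its cells, more cells with an isoform and more RNA per cell cannot be told apart.

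After 24 h of JNJ 3 alpha isoforms rose, and no beta or gamma member was called. These were Pcdhac1, Pcdha3 and Pcdha12, and they are 3 of 34 members tested, where 33.1% of all genes were called. By direction 18.1% of genes were called higher and 15.1% lower. The groups did not overlap for 4 of 34 members, against 55.5% of all genes.

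Pcdhac1, the C-type isoform next to Pcdhac2, stood at 8.47, 4.22 and 11.4 CPM with JNJ and at 1.12, 0.921 and 1.62 CPM with DMSO at 24 h. Every JNJ library lay above every DMSO library, and the change was 6.62-fold (log2 fold change 2.73, SE 0.46, edgeR adjusted p = 0.000894). Pcdha3 stood at 4.04, 2.25 and 3.52 CPM against 1.06, 0.947 and 0.937 CPM. Its groups did not overlap either, and the change was 3.35-fold (log2 fold change 1.74, SE 0.39, edgeR adjusted p = 0.00447). Pcdha12 stood at 1.69, 0.952 and 1.05 CPM (66, 30 and 27 counts) against 0.258, 0.179 and 0.341 CPM (9, 7 and 12 counts). This was 4.77-fold (log2 fold change 2.25, SE 0.64, edgeR adjusted p = 0.0159). Outside JNJ 24 h only JNJ 2 h replicate 1 (21 counts) and DMSO 24 h replicate 3 (12 counts) of the drug libraries reached 10 counts. Pcdha12 thus passed the low-count filter through JNJ 24 h, the group where it was high. Without the filter it was called as well (edgeR adjusted p = 0.0184). The call of Pcdha12 was lost without DMSO 24 h replicate 1, DMSO 24 h replicate 2 or JNJ 24 h replicate 1 (adjusted p = 0.0522, 0.0624 and 0.0602), where the log2 fold change was 2.24, 2.02 and 1.95.

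The remaining alpha isoforms differed from these. Pcdha9 stood at 1.15, 0.444 and 2.54 CPM against 0.401, 0.282 and 0.71 CPM, so that its groups overlapped. It was not called (log2 fold change 1.57, SE 0.59, edgeR adjusted p = 0.057), but was with a replicate block (log2 fold change 1.46, adjusted p = 0.0216, 24.3% of genes called higher) and without JNJ 24 h replicate 2 (log2 fold change 1.99, adjusted p = 0.02). Without JNJ 24 h replicate 3, its highest library, the log2 fold change was 0.80 (adjusted p = 0.341). Pcdha5 had a mean of 2.05 ± 0.496 CPM with JNJ and 1.66 ± 0.599 CPM with DMSO (SD, n = 3), a difference within the spread. Pcdhac2 stood at 10.4, 7.99 and 10.5 CPM against 11.0, 7.81 and 10.8 CPM, with fully overlapping groups.

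The make-up of the alpha reads differed between the groups without overlap. Pcdhac2 held 36.6, 45.6 and 33.3% of them in the JNJ 24 h libraries and 68.9, 69.3 and 65.6% in the DMSO 24 h libraries. Pcdhac1 held 29.7, 24.05 and 36.2% against 7.01, 8.18 and 9.86%. The summed alpha level was 25.8 ± 7.32 CPM with JNJ and 14.5 ± 2.84 CPM with DMSO (SD, n = 3), and JNJ replicate 2, at 17.5 CPM, lay close to the DMSO libraries.

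**Figure D3:**
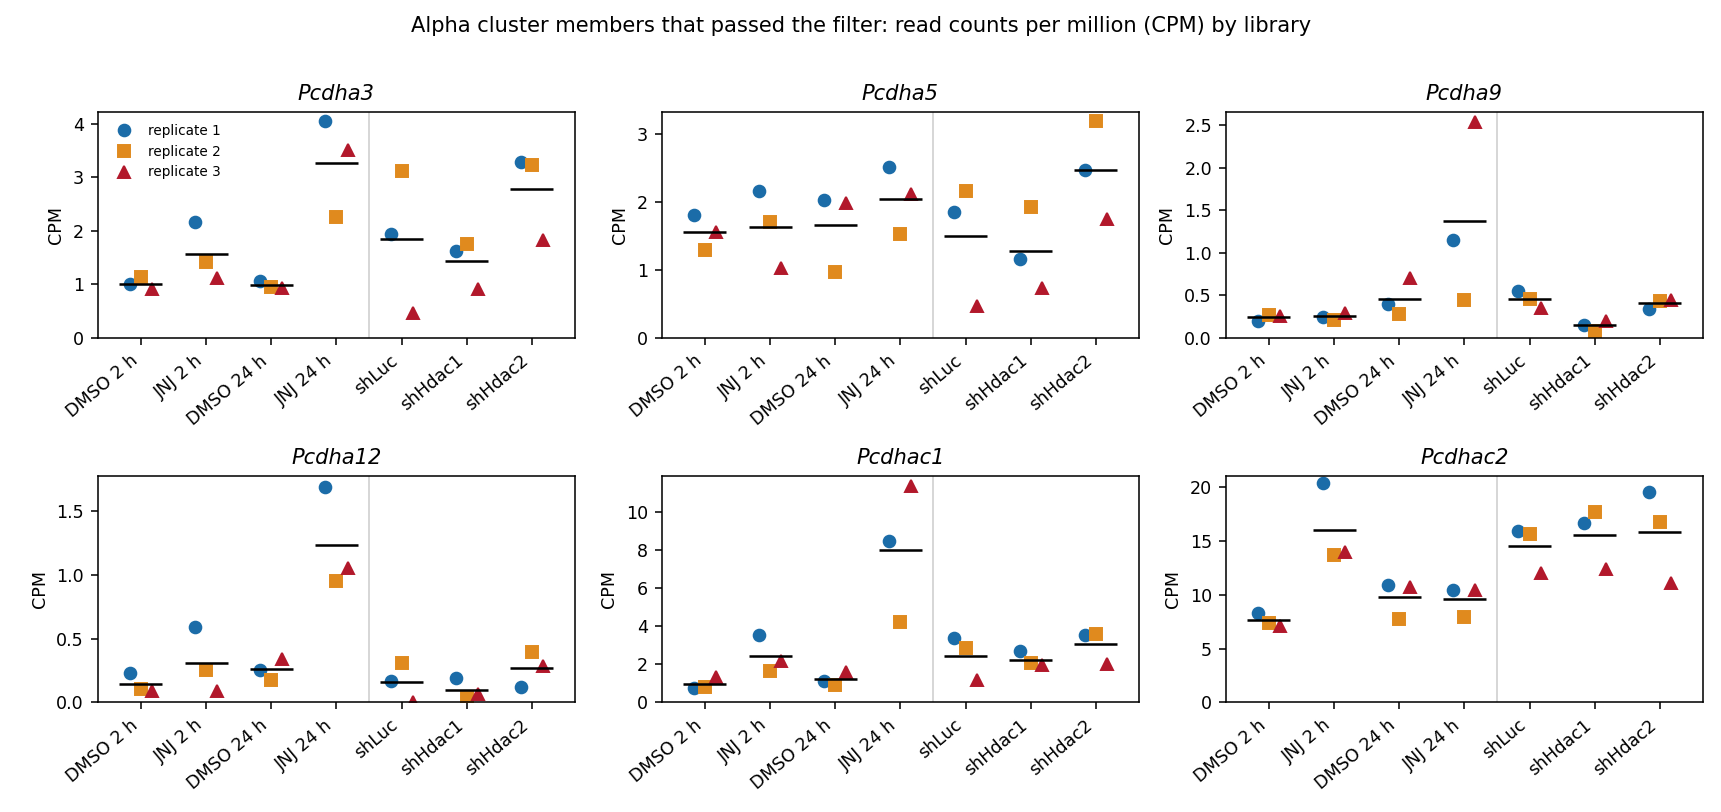
CPM (y axis) of the 6 alpha members that passed the filter, by group (x axis), 1 symbol per library by replicate number and the group mean as a black line. Pcdha3, Pcdha12 and Pcdhac1 were highest at JNJ 24 h without overlap with DMSO 24 h, whereas Pcdhac2 lay above DMSO without overlap at 2 h and overlapped with DMSO at 24 h.

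The beta and gamma clusters gave no calls at 24 h. For the 21 beta genes the log2 fold changes ran from -0.24 to 0.43 with a median of -0.004 and standard errors of 0.24 to 0.72. None had an unadjusted p under 0.05 in edgeR, where 43.3% of genes did, and none was called by DESeq2 (36.9% of genes). Pcdhb9 had 32.7 ± 7.92 CPM with JNJ and 33.6 ± 3.04 CPM with DMSO, and Pcdhb16 26.6 ± 5.38 against 30.0 ± 2.12 CPM (SD, n = 3). The 7 gamma members ran from -0.80 to 0.88 on the log2 scale, and none had an unadjusted p under 0.05. Pcdhgc3 stood at 49.9, 25.8 and 72.9 CPM with JNJ and 38.99, 23.5 and 66.2 CPM with DMSO, higher with JNJ within each replicate number but far apart between the numbers. Pcdhgb8 was the member whose JNJ libraries (0.947, 1.01 and 0.625 CPM) all lay below the DMSO libraries (1.69, 1.79 and 1.08 CPM), and it was not called.

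Marker genes of other cells moved at the same time point. The 8 markers of other neurons summed to 16.1 to 19.0 CPM at JNJ 24 h and to 1.28 to 9.35 CPM in the other groups, with none of the 8 at 0 in all libraries of JNJ 24 h. The 4 fibroblast markers summed to 11.5 to 27.7 CPM against 1.76 to 7.98 CPM elsewhere. The granule markers summed to 1230 to 1568 CPM at JNJ 24 h and to 2027 to 2377 CPM at DMSO 24 h. The astrocyte markers were lower too, at 105 to 138 CPM against 214 to 269 CPM, and both astrocyte markers that could be tested were called lower. Their part in the rise of the alpha isoforms was not tested.

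At 2 h Pcdhac2 was the member that rose, and it is 1 of 34 where 13.7% of genes were called (9.11% higher, 4.59% lower). It stood at 20.4, 13.7 and 14.0 CPM with JNJ against 8.32, 7.43 and 7.12 CPM with DMSO. The groups were well apart, and the change was 2.11-fold (log2 fold change 1.08, SE 0.24, edgeR adjusted p = 0.0116). Without DMSO 2 h replicate 2 or JNJ 2 h replicate 1 the call was lost (adjusted p = 0.0544 and 0.0565, log2 fold changes 1.03 and 0.86). Pcdhac1 stood at 3.53, 1.63 and 2.16 CPM against 0.746, 0.811 and 1.32 CPM, again without overlap. It was not called by edgeR (log2 fold change 1.36, SE 0.45, adjusted p = 0.0631), but passed once replicates were blocked (adjusted p = 0.0157, 14.5% of genes called higher) and in DESeq2 (adjusted p = 0.0269, 20.1% of genes called). These were the 2 members of 34 whose groups did not overlap, against 25.6% of all genes.

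Pcdha3, Pcdha5, Pcdha9 and Pcdha12 overlapped between the groups at 2 h. Pcdha3, for example, stood at 2.16, 1.41 and 1.11 CPM with JNJ and 1.00, 1.14 and 0.908 CPM with DMSO. Here too the granule markers were lower, at 1182 to 1703 CPM with JNJ against 1958 to 2231 CPM with DMSO. The astrocyte markers were not, at 261 to 467 CPM with JNJ against 228 to 261 CPM with DMSO, with 0 of 2 tested called. Of 4 endothelial markers tested, 1 was called higher. The part of these markers was not tested. All 6 alpha members had positive log2 fold changes (0.06 to 1.36, median 0.85), against a median of 0.03 for all genes tested. The summed alpha level was 29.3, 19.1 and 18.8 CPM with JNJ against 12.4, 11.1 and 11.3 CPM with DMSO.

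None of the 21 beta genes was called at 2 h by edgeR or DESeq2. Of these, 16 had negative log2 fold changes, and 4 (Pcdhb2, Pcdhb4, Pcdhb8 and Pcdhb12) had an unadjusted p under 0.05, where 29% of genes did. Pcdhb4, among the highest beta genes, stood at 9.78, 11.3 and 7.16 CPM with JNJ and 17.4, 16.1 and 10.9 CPM with DMSO (log2 fold change -0.64, SE 0.29, edgeR adjusted p = 0.164). Pcdhb12 stood at 1.34, 0.834 and 0.351 CPM against 2.15, 2.3 and 1.23 CPM (log2 fold change -1.16, SE 0.47, edgeR adjusted p = 0.126), and was called with a replicate block (log2 fold change -1.22, adjusted p = 0.0418, 9.35% of genes called lower). Both overlapped between the groups. Of the 7 gamma members none had an unadjusted p under 0.05 or a call by DESeq2. Pcdhgc3 stood at 39.5, 22.99 and 58.6 CPM with JNJ and 22.4, 21.2 and 55.4 CPM with DMSO.

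**Figure D4:**
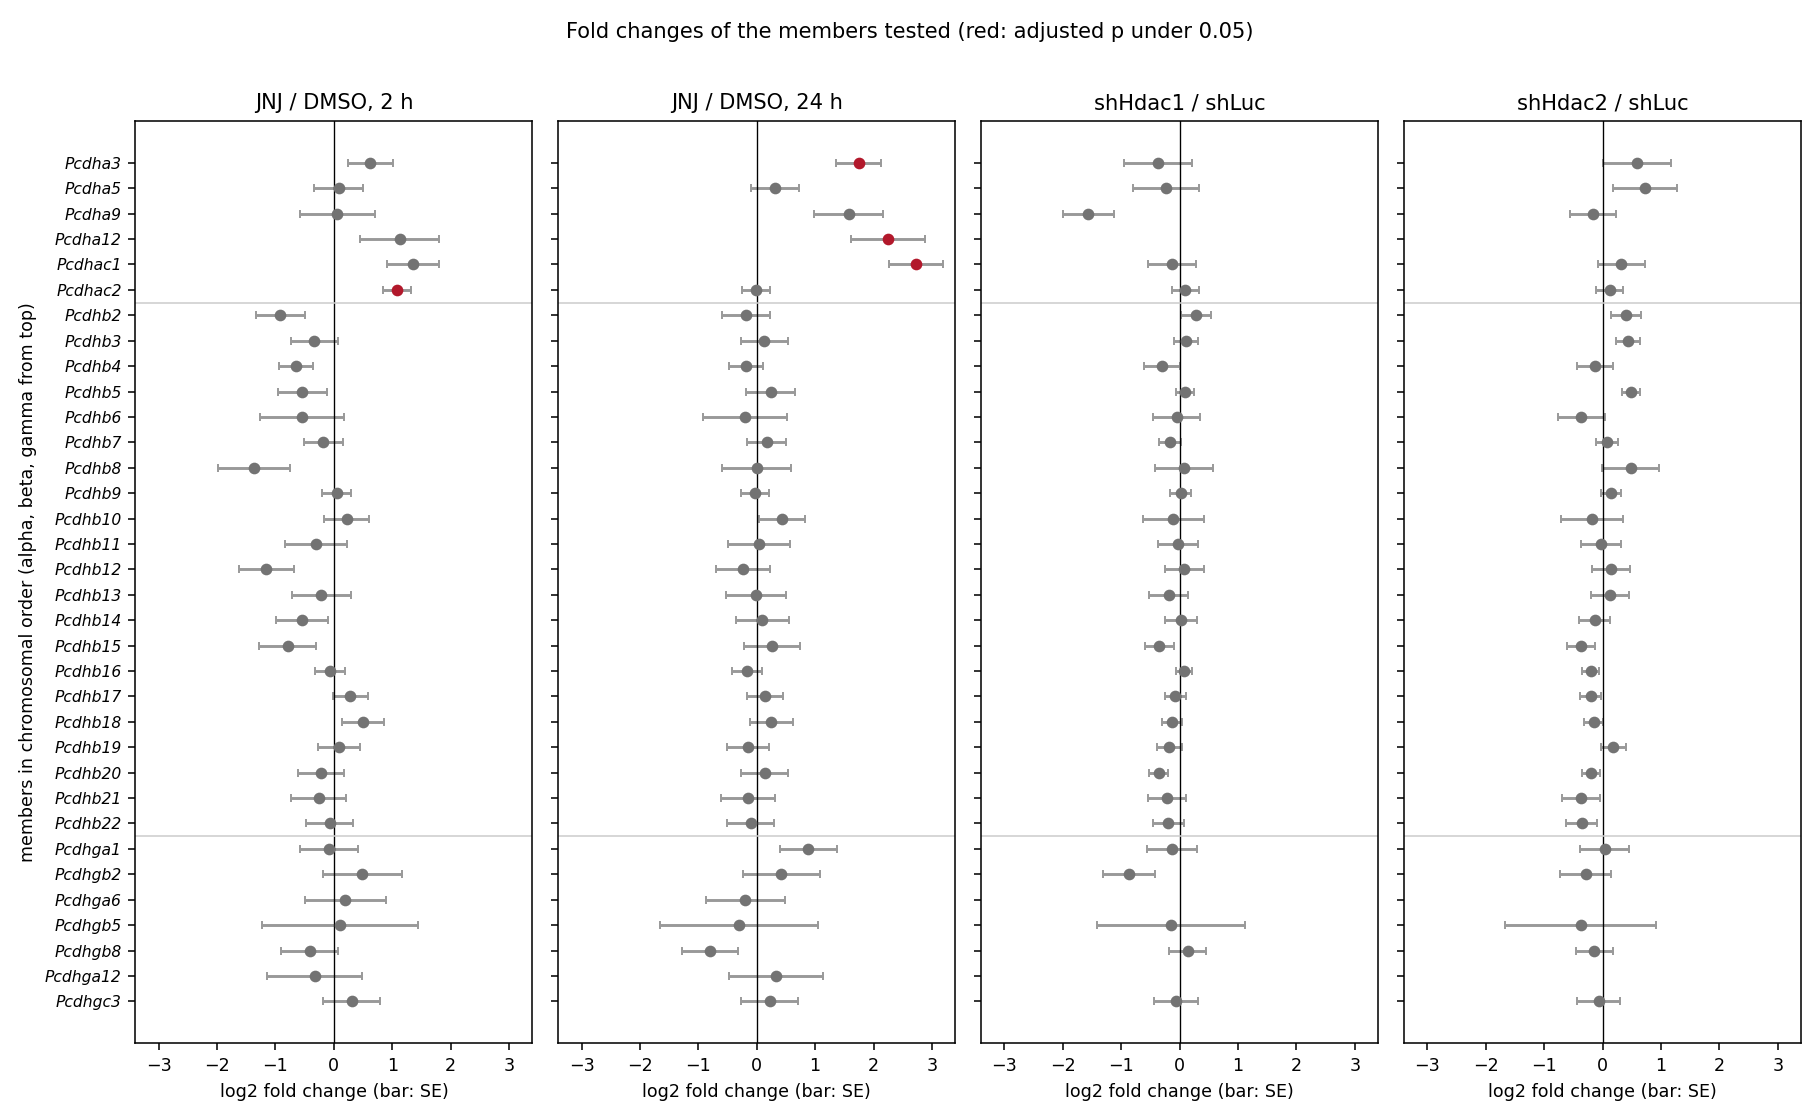
Log2 fold change with its SE (x axis) of each tested member, in chromosomal order (y axis), for JNJ against DMSO at 2 h and 24 h and for shHdac1 and shHdac2 against shLuc. Red points passed an adjusted p of 0.05: Pcdhac2 at 2 h, and Pcdha3, Pcdha12 and Pcdhac1 at 24 h.

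The 2 time points were compared through the difference of the drug effects, 24 h minus 2 h. No member was called by edgeR, where 4.24% of genes were, and 2 had an unadjusted p under 0.05 (22% of genes). The effect on Pcdhac2 was smaller at 24 h by -1.10 on the log2 scale (SE 0.34, edgeR adjusted p = 0.0823). This difference was called with a replicate block (-1.08, adjusted p = 0.0218, 6.84% of genes called lower) and by DESeq2 (adjusted p = 0.0234, 10.6% of genes called). The effect on Pcdhac1 was larger at 24 h by 1.37 (SE 0.63, edgeR adjusted p = 0.223), which was not called. Pcdha3 and Pcdha12 thus passed the threshold at 24 h and not at 2 h without a called difference between the times.

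No member was called for time in culture with DMSO. Between DMSO 24 h and DMSO 2 h edgeR called 0 of 34 members and 0% of genes, 0 members had an unadjusted p under 0.05 (9.79% of genes), and DESeq2 called 0 members (0.111% of genes). The DMSO libraries of 3 members did not overlap between the times, against 17.2% of genes. One of them was Pcdha9, at 0.401, 0.282 and 0.71 CPM after 24 h and 0.201, 0.27 and 0.264 CPM after 2 h.

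Neither hairpin gave a called member. For shHdac1 against shLuc edgeR called 0 of 31 members, where 0.749% of genes were called, 2 members had an unadjusted p under 0.05 (12.4% of genes), and DESeq2 called 0 (4.36% of genes). Pcdha9 stood at 0.157, 0.0839 and 0.202 CPM (5, 2 and 6 counts) with shHdac1 and at 0.547, 0.461 and 0.353 CPM (13, 12 and 9 counts) with shLuc. The groups did not overlap, but the counts were few (log2 fold change -1.57, SE 0.44, edgeR adjusted p = 0.171). Without shLuc replicate 3 it was called (log2 fold change -1.71, adjusted p = 0.0378, 6.59% of genes called lower). Pcdhb20 was the other, at 4.89, 5.08 and 5.34 CPM against 6.82, 6.61 and 6.24 CPM (log2 fold change -0.36, SE 0.16, edgeR adjusted p = 0.393). The groups of 4 members did not overlap, all lower with shHdac1, against 16.7% of genes.

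For shHdac2 against shLuc edgeR called 0 of 31 members, where 1.68% of genes were called, 1 had an unadjusted p under 0.05 (15.9% of genes), and DESeq2 called 0 (6.97% of genes). That member was Pcdhb5, at 17.4, 21.2 and 15.7 CPM with shHdac2 and 13.2, 14.1 and 11.3 CPM with shLuc (log2 fold change 0.49, SE 0.15, edgeR adjusted p = 0.163). Its shHdac2 libraries all lay above those of shLuc. In all, 3 members lay above and 1 below without overlap, against 21.2% of genes.

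The hairpins compared with each other likewise gave 0 of 31 called members (2.06% of genes), 2 with an unadjusted p under 0.05 (14.3% of genes) and 0 by DESeq2 (6.43% of genes). The groups of 6 members did not overlap, all lower with shHdac1, against 26.7% of genes. Those with the low p were Pcdha9 (shHdac1 lower, log2 fold change -1.41, SE 0.44, edgeR adjusted p = 0.159) and Pcdhb5 (-0.39, SE 0.15, edgeR adjusted p = 0.27). The alpha isoforms that rose with JNJ at 24 h overlapped between each hairpin and shLuc. Pcdhac1 stood at 2.73, 2.06 and 1.95 CPM with shHdac1, 3.56, 3.62 and 2.04 with shHdac2 and 3.37, 2.84 and 1.18 with shLuc. Pcdhac2 had means of 15.6 ± 2.82, 15.8 ± 4.30 and 14.6 ± 2.21 CPM in the same order (SD, n = 3). Pcdha12 was not tested here, at 0 to 11 counts per library.

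These counts depended on the libraries numbered 3. Leaving them out of every group, an alternative added after seeing the data, lowered the common biological coefficient of variation of the shRNA libraries from 0.209 to 0.0471. Then 6 members were called lower with shHdac1 than with shLuc, where 22.5% of genes were. With shHdac2, 1 was called higher (Pcdhb5, 22.5% of genes) and 1 lower (Pcdhgc3, 21.7% of genes), and 9 were lower with shHdac1 than with shHdac2 (19.6% of genes). With replicates 1 and 2 of a group instead summed to 1 library, also added after seeing the data, 0 members were called in each of these comparisons. In that fit 0%, 0.00715% and 0.0143% of 13989 genes were called.

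**Figure D5:**
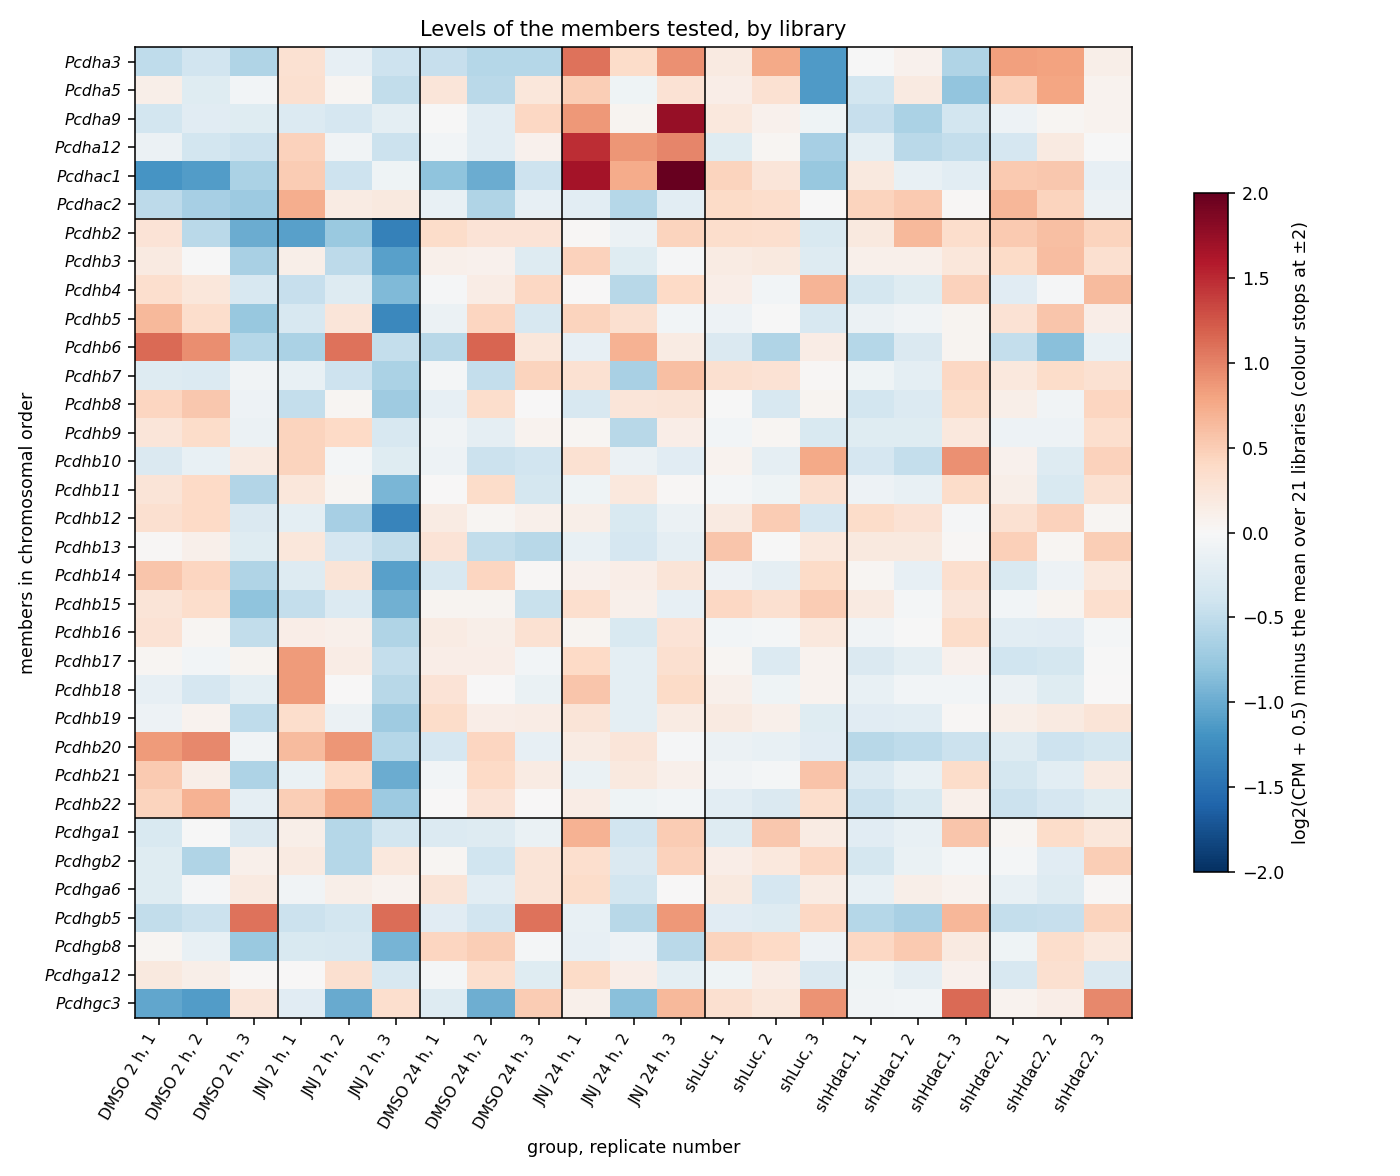
Each tested member (y axis, chromosomal order) in each of 21 libraries (x axis), as log2(CPM + 0.5) minus its mean over the libraries, in colour from -2 to 2. Pcdha3, Pcdha12 and Pcdhac1 stand out at JNJ 24 h, Pcdhgb5 and Pcdhgc3 in the libraries numbered 3, and Pcdhb6 in replicate 2 of the JNJ and DMSO groups.

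The genes around this family were taken as lists. Factors that insulate or silence the locus (25 listed, 24 tested) were called lower more than higher with JNJ. At 24 h 12 of 24 were called lower and 0 higher, with a median log2 fold change of -0.54 against 0.01 for all genes, of which 15.1% were called lower and 18.1% higher. The lowest p-values were those of the cohesin subunits Stag1 (log2 fold change -1.55) and Stag2 (-0.95) and of the histone methyltransferase Setdb1 (-0.73). Ctcf, which binds the isoform promoters, fell from 254, 264 and 309 CPM to 154, 158 and 154 CPM at 24 h and from 276, 271 and 244 to 114, 146 and 134 CPM at 2 h (log2 fold changes -0.82 and -0.998). At 2 h 4 of 24 were called lower and 1, the DNA methyltransferase Dnmt3b, higher (1.44), against 4.59% and 9.11% of all genes. With the hairpins 0 of 24 were called in each comparison.

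Of 12 protocadherins encoded outside the clusters 10 were tested. At 24 h 5 rose and 1 fell (18.1% and 15.1% of all genes), led by Pcdh1 (log2 fold change 2.29), Pcdh10 (2.72) and Pcdh8 (2.37), with Pcdh18 the one that fell (-1.27). At 2 h Pcdh1 (2.98) and Pcdh8 (1.91) rose, where 9.11% of all genes did. Of 17 tested genes beside or between the clusters, Rell2 (1.98) and Fchsd1 (1.48) rose at 24 h, and Hars (-0.81) and Wdr55 (-0.77) fell, while Fchsd1 alone was called at 2 h (2.01). This is 4 of 17 at 24 h, where 33.1% of all genes were called, and 1 of 17 at 2 h, where 13.7% were. Of 22 signalling and processing partners of the proteins, 4 rose and 4 fell at 24 h, and 3 rose and 2 fell at 2 h. Those that rose at 24 h included the receptor kinase Ret (6.22) and the actin regulator Cyfip2 (2.75). Those that fell at 24 h were Axin1, Cyfip1, Marcks and Nckap1. The 8 of 22 called at 24 h stood beside the same 33.1% of all genes, and the 5 of 22 at 2 h beside 13.7%. With the hairpins Nckap1, an actin regulator of the same complex as Cyfip2, fell with shHdac2 (-0.56), the single call of these lists against shLuc.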

How the data were processed

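Reads of 75 bases, single-end, from stranded mRNA libraries were aligned with STAR 2.5.1b to mm9, per the submitters' processing notes. The authors deposited raw read counts per gene symbol for 21 libraries. For the counter, its strand setting, the annotation and the treatment of reads shared by genes, the sources used here give nothing, so close paralogs and isoforms with common exons are uncertain.

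Samples were grouped by their labels. Separate fits of the 12 drug and the 9 shRNA libraries used edgeR 4.0.16 (R 4.3.3, TMM scaling, filterByExpr with minimum count 10 and minimum total 15, quasi-likelihood tests, two-sided, Benjamini-Hochberg adjustment over all genes tested, group as the only term), which left 14467 and 13612 genes. The script was tested on simulated data. Fold changes come from these fits, and printed CPM from scaled totals of all 21 libraries. Alternatives were other scalings, filters and a replicate block, leave-one-out fits, DESeq2 1.42.0 and 1 fit of all libraries. The members, gene lists and tests were chosen with earlier results of these data known.

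Replicate numbers were taken to pair libraries where residuals of same-numbered libraries correlated above 0.1. They did so at 24 h (0.566 to 0.656) and in the shRNA groups (0.245 to 0.798), not at 2 h (-0.005 to 0.651). Between shRNA groups, however, replicate 1 correlated with replicate 2 at 0.238 to 0.581. Same-numbered libraries among these replicates stood at 0.245 to 0.599. There the rule cannot tell a pairing of numbers 1 and 2 from the split of replicate 3. The main tests were nevertheless unpaired in all groups, and the pairing entered only through the replicate block among the alternatives. Named were the C-type isoforms, the 4 highest numbered alpha, beta, gamma A and gamma B isoforms by mean CPM, called members, the hairpin targets, and at most 3 called genes per list and direction. Pcdha4, Pcdhb1, Pcdhb2, Pcdhb6, Pcdhb8, Pcdhb12 and Pcdhb20 were named after their values were seen, as were the partners lower with JNJ at 24 h.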

Additional observations from a re-analysis of the deposited data

Results flagged for a closer look

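Some genes of the lists beside the clustered protocadherins had an effect that differed between 2 conditions by the test of the difference itself (edgeR, adjusted p under 0.05). The effect of JNJ at 24 h exceeded that at 2 h by 1.36 for Atf7ip, 2.55 for Cyfip2, 2.25 for Pcdh10 and 3.52 for Ret, and lay below it by -1.15 for Stag1, all on the log2 scale. Between the hairpins, the shHdac1 value minus the shHdac2 value was -1.75 for Hdac1, 2.67 for Hdac2, 0.54 for Nckap1 and 0.91 for Psen2. No member of the clusters was among them.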

How the results depend on the processing

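The 3 calls at 24 h kept their number under the RLE scaling, both other filters, DESeq2 and without the libraries numbered 3, and 4 members were called with upper-quartile scaling, library totals, 1 fit of all 21 libraries and the replicate block, Pcdha9 being the one gained. Leaving out 1 library gave 2 to 4. At 2 h 2 members were called higher with the replicate block, DESeq2 and the fit of all libraries (Pcdhac1 gained), 1 was called lower with the block (Pcdhb12), and leaving out 1 library gave 0 to 1 higher. For the difference between the times, 1 member (Pcdhac2) was called lower under the same 3 settings. The pairing by replicate number changed no other call.

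For shHdac1 against shLuc, leaving out 1 library gave 0 to 1 members called lower, and 6 without the libraries numbered 3. Without those, shHdac2 against shLuc gave 1 higher and 1 lower, and shHdac1 against shHdac2 gave 9 lower. Pcdhgc3 with shHdac2 had a log2 fold change of -0.07, which changed sign without shLuc replicate 3 (0.18), shHdac2 replicate 1 (0.09) or shHdac2 replicate 2 (0.07), in a leave-one-out range of -0.40 to 0.18. The alpha sum of DMSO 2 h was 10.9 CPM with library totals and 11.6 CPM with TMM. The cause of these shifts was not tested.

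Scaling by library totals or upper quartiles raised the median log2 fold change of all genes at 24 h from 0.01 to 0.17 and 0.12, and the split of calls from 2613 higher and 2178 lower to 3170 and 1470 or 2974 and 1687. At 2 h upper quartiles changed it from 1318 and 664 to 1089 and 909. Over all genes, 1982 were called at 2 h, 3455 with the block, 3185 in the fit of all libraries and 1043 to 3365 leaving out 1 library. Over all genes, shHdac1 against shLuc gave 102 calls. It gave 523 with the block, 580 by DESeq2, 8 in the fit of all 21 libraries and 6045 without the libraries numbered 3. Leaving out 1 library gave 2 to 30, or 1512 without shLuc replicate 3. At this depth 24 of 58 members were too low to test in the drug libraries.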
